A study of Mus musculus with 6 samples.

Results

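The Egr and Nr4a immediate early transcription factors and their Nab corepressors were examined in the prefrontal cortex (PFC) of control mice and of mice exposed to early life stress (ELS). The members were taken by gene symbol: Egr1, Egr2, Egr3, Egr4, Nr4a1, Nr4a2, Nr4a3, Nab1 and Nab2. All 9 had a row among the 22000 gene symbols of the counts table, and all 9 passed the filter on low counts. The set was chosen by these symbols as a gene family, with the ELS and control levels of these same 6 mice already known, in which Nr4a1 and Egr1 were lower after ELS. Their levels in the 2 groups are therefore given as a description, without a test of their own.

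Immediate early genes are transcribed within minutes of a stimulus without the need for new protein synthesis. In cortical neurons, synaptic activity raises calcium and activates ERK and calcium-dependent kinases, which act on CREB, serum response factor (SRF) and its ternary complex partners, and MEF2 at the promoters of these genes. EGR proteins bind GC-rich DNA through zinc fingers, and NR4A proteins are orphan nuclear receptors that bind DNA as monomers, dimers or together with retinoid X receptors. NAB1 and NAB2 bind EGR proteins and repress their activity, in part through the NuRD chromatin complex. In the cortex, several of these genes are also known as markers of recent neuronal activity.

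RNA-seq was carried out on 3 control and 3 ELS mice, with 1 library per mouse, from PFC of male C57BL/6N mice at 9 weeks of age. ELS mice were housed alone under a filter cap after weaning at postnatal day 21 (P21), with an isolation period to P50, whereas control males shared a cage without a cap, and each kept its housing until dissection, given as P67. Isolation, the filter cap and the later housing were applied together and cannot be told apart, and per the methods mice were tested for behavior before dissection. Both groups came from shared litters, but the labels do not tie a mouse to a litter. Libraries held from 28405795 to 35241743 counts, and all 3 ELS libraries were deeper than the controls. Control mouse 3 differed most from its group, since chi-square over its degrees of freedom was 18.3 against control mouse 2 and 19.4 against control mouse 1, and 6.72 between those mice. The summed level of 8 marker genes of striatal projection neurons was 557 CPM (counts scaled to library totals after TMM adjustment) in this mouse and 298 and 327 CPM in the other control mice. In ELS mice it was 541, 360.0 and 386 CPM. The cortical excitatory neuron markers Slc17a7, Camk2a, Tbr1 and Neurod6 were present and together came to 5492 to 6123 CPM in control mice and 5192 to 6055 CPM in ELS mice, with overlap. All 4 had fitted log2 fold changes slightly below 0, from -0.08 to -0.0042, and their part in the levels of the Egr and Nr4a genes was not tested.

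The promoter sequences are shown first because they carry the letters that CREB, SRF and MEF2 are known to read. RefSeq windows on GRCm38.p6, each from 250 bases before to 50 bases after a start site, were found for 7 of the 9 members, and Egr1 and Egr3 were not matched. The stretches below are read 5′ to 3′ on the strand of the gene and stop before the start site or the first exon. Capitals mark the CRE core site TGACG or its complement CGTCA, the CArG box bound by SRF (Egr2), the EGR site GCGGGGGCG on the other strand (Nr4a1) and the MEF2 site (Nr4a2). They lie at chr15:101266596-101266845 (plus strand) for Nr4a1, chr2:57124004-57124253 (minus strand) for Nr4a2, chr4:48045055-48045152 (plus strand) for Nr4a3, chr10:67537619-67537868 (plus strand) for Egr2 and chr6:85513590-85513839 (minus strand) for Egr4. The Nr4a1 and Egr2 stretches lie inside the bounds of the annotated gene, ahead of a later start site, and the short Nr4a3 stretch ends before the last of its 4 CRE core sites.
Nr4a1: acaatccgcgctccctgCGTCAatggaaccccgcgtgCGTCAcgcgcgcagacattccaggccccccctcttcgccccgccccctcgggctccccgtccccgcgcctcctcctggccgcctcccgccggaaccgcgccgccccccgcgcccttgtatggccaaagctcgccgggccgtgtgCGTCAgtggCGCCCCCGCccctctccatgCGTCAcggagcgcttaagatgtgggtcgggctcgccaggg
Nr4a2: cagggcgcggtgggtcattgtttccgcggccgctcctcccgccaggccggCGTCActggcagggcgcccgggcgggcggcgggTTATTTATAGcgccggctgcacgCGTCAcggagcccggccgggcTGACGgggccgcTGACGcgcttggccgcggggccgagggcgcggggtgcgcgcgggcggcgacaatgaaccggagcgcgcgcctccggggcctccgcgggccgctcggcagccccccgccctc
Nr4a3: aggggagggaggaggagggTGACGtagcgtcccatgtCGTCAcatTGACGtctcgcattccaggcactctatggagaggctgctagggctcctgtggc
Egr2: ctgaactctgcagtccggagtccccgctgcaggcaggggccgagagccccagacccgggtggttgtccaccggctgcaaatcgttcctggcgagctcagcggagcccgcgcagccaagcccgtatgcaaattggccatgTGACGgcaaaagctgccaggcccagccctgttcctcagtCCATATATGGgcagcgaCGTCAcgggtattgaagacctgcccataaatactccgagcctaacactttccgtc
Egr4: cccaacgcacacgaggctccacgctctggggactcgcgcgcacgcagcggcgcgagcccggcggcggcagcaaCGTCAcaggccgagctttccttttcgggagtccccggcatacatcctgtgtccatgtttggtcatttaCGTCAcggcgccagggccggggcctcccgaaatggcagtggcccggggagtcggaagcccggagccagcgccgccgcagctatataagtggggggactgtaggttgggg

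The 3 Nr4a genes had the same number of CRE core sites, with 4 matches on either strand in each window. At least 4 matches were found in 0.231% of the 32851 windows of all genes, and in 0.513% of the 13248 windows with a GC content of 56% or more, the lowest GC content of a member window. Egr2 (in 3 of its 5 windows, which overlap one another) and Egr4 had 2 core sites, against 5.01% of all windows and 8.87% of those GC-rich windows with at least 2. Nab1 had 1, and none was found in the Nab2 window. In all, 6 of the 7 members with a window held a core site, against 23.0% of the 27025 genes, 20.8% of all windows and 30.4% of the GC-rich windows. The full palindromic CRE, TGACGTCA, which holds a core site on each strand and was found in 1.79% of windows, was in no member window.

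A CArG box was found in Egr2 alone among the members with a window, 72 bases before the start site of the window shown, and in 1.63% of all windows. The EGR site GCGTGGGCG was found in Nab1, at 141 and 109 bases before the start site on opposite strands, and in 0.612% of windows. Its variant GCGGGGGCG lay at 38 bases before the start site of Nab1 and at 60 bases before that of Nr4a1, and in 2.91% of windows. The monomer site of NR4A proteins, AAAGGTCA (1.51% of windows), had no match in a member window. The MEF2 site of Nr4a2 lay 167 bases before its start site, and 3.19% of windows held such a site. These matches describe the letters of a window and do not show binding.

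**Figure D1:**
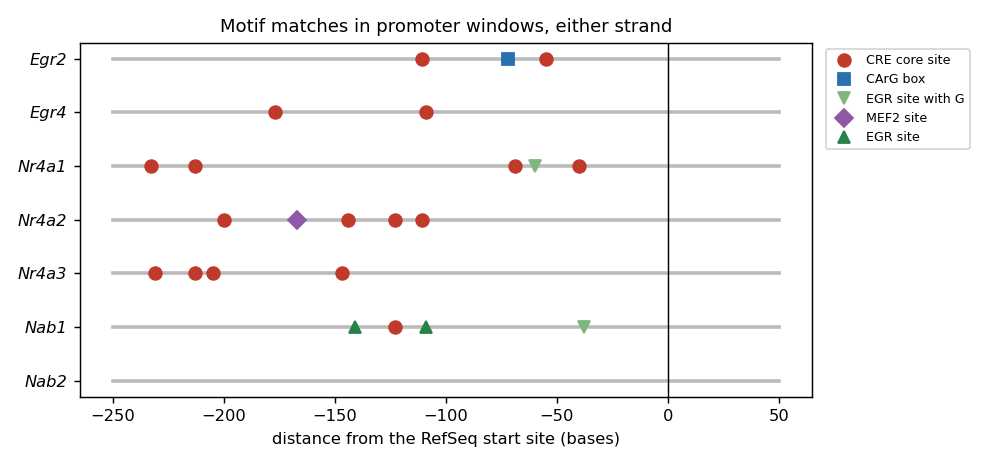
Motif matches in the RefSeq promoter windows of 7 members, by distance from the start site in bases, with 1 window per gene (the one with most CRE core sites). Symbols mark the first base of each match on either strand, and the Nr4a genes each carry 4 CRE core sites whereas the Nab2 window carries no match.

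Egr1, the member best known as a marker of cortical activity, is annotated on the plus strand of chromosome 18, positions 34859823 to 34864984 of GRCm38. Its level was 309.9, 276 and 202 CPM in control mice 1 to 3, and 177, 175 and 131 CPM in ELS mice 1 to 3. All 3 ELS mice were below the 3 controls, and the highest control mouse was 1.53 times the lowest. The mean was 263 ± 55.1 CPM in the controls and 161 ± 26.1 CPM after ELS (SD, n = 3 each), so the ELS mean was 61.4% of the control mean. The fitted log2 fold change was -0.70 with a standard error of 0.144, and it was -0.86 without control mouse 3 and -0.57 without control mouse 1.

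Egr2, known for its role in hindbrain patterning and in myelinating Schwann cells, is annotated on the plus strand of chromosome 10, positions 67535475 to 67542188. It had 12.4, 7.79 and 6.18 CPM in the controls and 7.41, 5.61 and 5.06 CPM after ELS. The groups overlapped, because ELS mouse 1 was above control mouse 3, and control mouse 1 stood well above the other 5 mice. The fitted log2 fold change of -0.55 (standard error 0.226) shrank to -0.21 without control mouse 1. Egr2 had the fewest reads of the members, and its lowest count of 163 carries a counting error of 7.83%.

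Egr3, a relative of Egr1 required for muscle spindles and also induced by activity in the cortex, is annotated on the plus strand of chromosome 14, positions 70077203 to 70082614. It had 219, 229 and 181 CPM in the controls and 213, 202 and 209.9 CPM after ELS. The ELS mice fell inside the range of the control mice, with 209.8 ± 25.1 CPM in the controls and 208 ± 5.80 CPM after ELS (SD, n = 3 each). Its log2 fold change was -0.01 with a standard error of 0.0843. Its sign turned with upper-quartile scaling or with no scaling factors (0.0011 in both), so no direction can be given for Egr3.

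Egr4, a further zinc finger gene of the family, is annotated on the minus strand of chromosome 6, positions 85511121 to 85513589. It had 38.8, 32.5 and 28.7 CPM in the controls and 29.0, 27.7 and 21.1 CPM after ELS. The groups overlapped narrowly, at ELS mouse 1 and control mouse 3. Egr4 had a fitted log2 fold change of -0.36 with a standard error of 0.128, and -0.23 without ELS mouse 3.

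Among the Nr4a genes, Nr4a1 encodes Nur77 and is annotated on the plus strand of chromosome 15, positions 101254269 to 101274795. It had 82.9, 73.3 and 69.3 CPM in the controls and 52.2, 59.8 and 51.4 CPM after ELS. All 3 ELS mice were below the 3 controls, and among the Nr4a genes the spread of Nr4a1 between control mice was the smallest, at 9.28% of the mean. The ELS mean was 72.5% of the control mean, and the fitted log2 fold change was -0.46 with a standard error of 0.0854.

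Nr4a2 encodes Nurr1, which dopamine neurons need and which also marks neurons of the claustrum and layer 6b, and is annotated on the minus strand of chromosome 2, positions 57106830 to 57124003. It had 26.6, 28.4 and 17.8 CPM in the controls and 20.7, 20.8 and 20.2 CPM after ELS. The ELS mice were close together, with a spread of 1.62% of the mean that is below the counting error, and control mouse 3 was below all of them. The fitted log2 fold change was -0.24 (standard error 0.137), and it was -0.42 without control mouse 3 and -0.11 without control mouse 2. The summed level of 6 other markers of claustrum and layer 6b neurons overlapped between groups, at 153 to 161 CPM in the controls and 157 to 167 CPM after ELS.

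Nr4a3 encodes NOR1, the third receptor of the family, and is annotated on the plus strand of chromosome 4, positions 48045153 to 48086447. It had 38.9, 41.8 and 30.0 CPM in the controls and 33.4, 28.9 and 24.0 CPM after ELS. The groups overlapped at control mouse 3 and ELS mouse 1. Nr4a3 had a fitted log2 fold change of -0.36 with a standard error of 0.131, and -0.25 without ELS mouse 3.

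The corepressor gene Nab1, which is expressed without a stimulus in many tissues, is annotated on the minus strand of chromosome 1, positions 52457294 to 52500679. It had 43.0, 42.4 and 41.5 CPM in the controls and 43.1, 45.1 and 44.2 CPM after ELS. The ELS mice were just above the control mice, by a fitted log2 fold change of 0.06 with a standard error of 0.0661. The spread of Nab1 was below its counting error, at 1.80% of the mean in control mice. Nab2, itself known as a target of EGR proteins that feeds back on them, is annotated on the minus strand of chromosome 10, positions 127660918 to 127668568. It had 42.0, 38.5 and 35.0 CPM in the controls and 39.6, 34.2 and 37.0 CPM after ELS. The groups overlapped, with a fitted log2 fold change of -0.06 (standard error 0.0862) that turned to 0.0064 without control mouse 1. An antisense gene covers 35.7% of the Nab2 exons, the labels and the methods name different stranded kits, and the strand setting of the counting is not given in the sources used here, so the Nab2 values are uncertain.

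**Figure D2:**
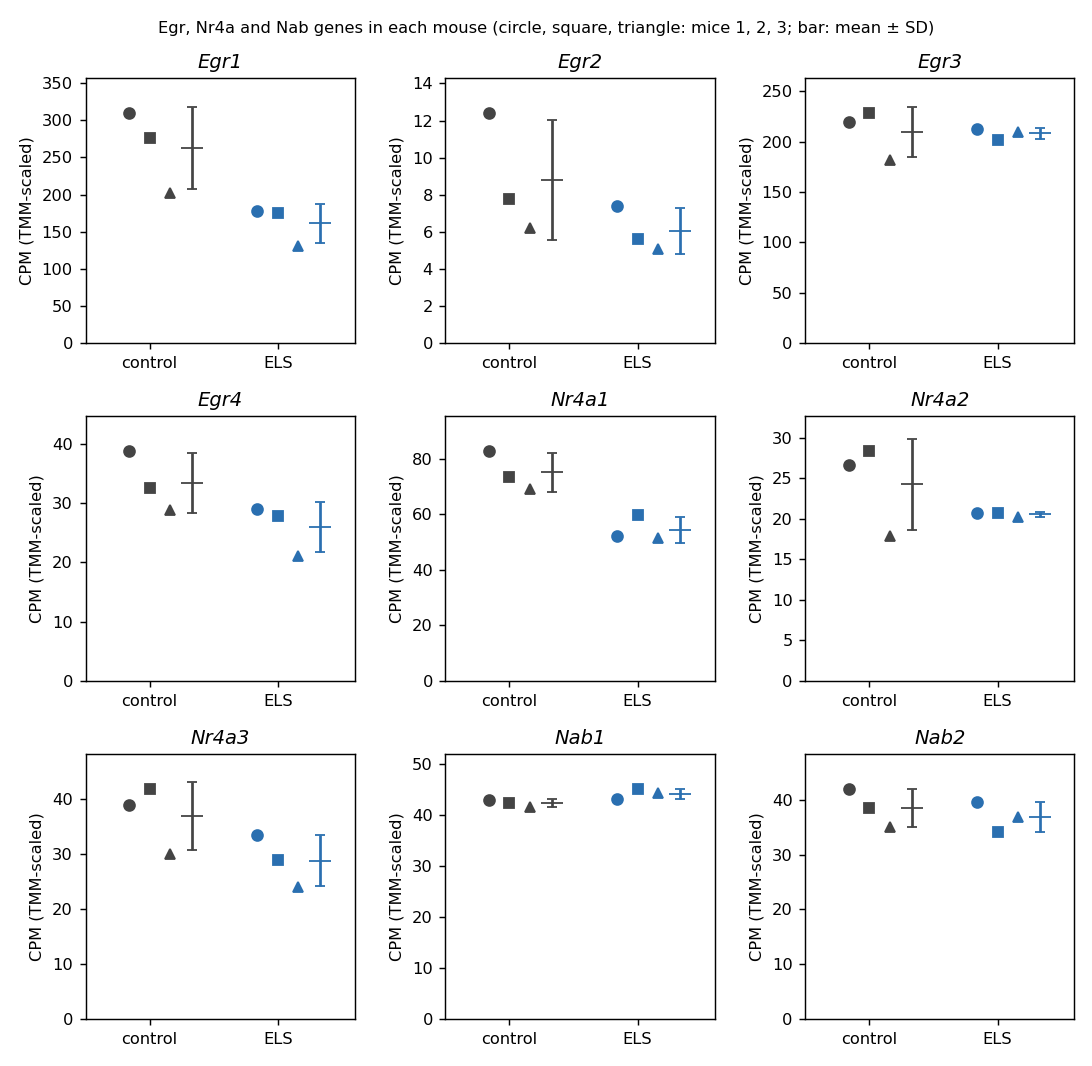
TMM-scaled CPM of the 9 members in each of the 3 control and 3 ELS mice, with the mean and SD of each group as a bar. In Egr1 and Nr4a1 all ELS mice lie below all control mice, and in Nab1 they lie just above them. In Egr2, Egr3, Egr4, Nr4a2, Nr4a3 and Nab2 the groups overlap. Control mouse 3 is the lowest control mouse in every panel.

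The fitted log2 fold change was below 0 in 8 of the 9 members, against 52.5% of all genes tested. It was below 0 in all 7 Egr and Nr4a genes under the scaling used here, though the sign of Egr3 turned under other scaling. The members were chosen with this comparison known, so these counts are a description. The median over the members was -0.36, against -0.0046 over the 13185 genes tested. It was -0.21 without control mouse 1, -0.23 without ELS mouse 3 and -0.46 without control mouse 3. In bulk tissue, fewer cells of a type and less RNA per cell cannot be told apart.

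With edgeR's quasi-likelihood test over all genes (called at a Benjamini-Hochberg adjusted p under 0.05 with a log2 fold change past 0.3 either way), 0 of the 9 members and 0.0152% of all genes were called. At an unadjusted p under 0.05 the same fit had 5 members, all 5 lower after ELS, against 4.23% of all genes and 2.34% lower. DESeq2 called 1 member, Nr4a1, beside 0.137% of all genes, and the edgeR likelihood ratio test called Nr4a1 and Egr1 beside 0.212%. A fit with replicate number as a block called Egr1 beside 0.0531%. Without control mouse 3 the quasi-likelihood test called 3 members, Egr1, Nr4a1 and Nr4a2, beside 0.219% of all genes. The groups did not overlap in 3 members, against 8.28% of all genes, and 2 of these were lower after ELS, against 4.47%. As the members were chosen with this comparison known, nothing is read from these counts.

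**Figure D3:**
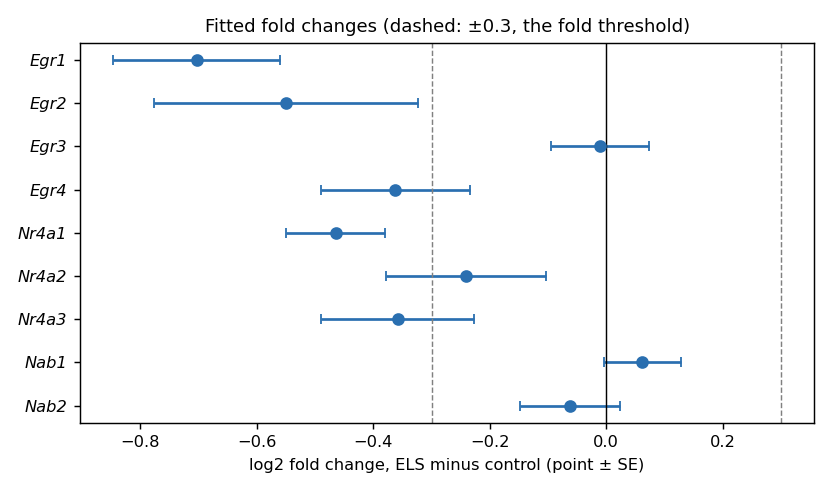
Fitted log2 fold changes (ELS minus control, points) of the 9 members with their standard errors (bars) from edgeR's quasi-likelihood fit, and the fold threshold of 0.3 as dashed lines. Egr1 is lowest at -0.70, and Egr3, Nab1 and Nab2 lie near 0.

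Levels of different members were compared per kb of exon, as CPM divided by the joined length of all annotated exons. In control mice the order was Egr1 (58.6 ± 12.3), Egr3 (47.6 ± 5.69), Nr4a1 (21.4 ± 1.99), Egr4 (15.5 ± 2.36), Nab2 (13.1 ± 1.19), Nab1 (10.3 ± 0.186), Nr4a3 (6.16 ± 1.02), Nr4a2 (5.98 ± 1.39) and Egr2 (2.59 ± 0.951), each as CPM per kb (SD, n = 3). Of the 8 pairs of neighbours in this order, 5 did not overlap between mice, and the pairs Egr1 and Egr3, Egr4 and Nab2, and Nr4a3 and Nr4a2 did overlap. In ELS mice Egr3 came first with 47.3 ± 1.32 CPM per kb and Egr1 second with 36.0 ± 5.83 CPM per kb, and these did not overlap. Nab2, with its uncertain count, and Egr4 changed places in ELS mice, within their spread. The order of Nr4a2 and Nr4a3 depended on the length used, as with the longest transcript in place of all exons Nr4a2 had 6.80 and Nr4a3 6.45 CPM per kb in control mice. With that length Nr4a1 had 29.4 CPM per kb in control mice. Egr1 and Egr3 were thus the most abundant members in either group, and Egr2 the least.

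Ratios of counts within a mouse do not depend on the scaling of libraries. The ratio of Egr1 to Egr3 was 1.41, 1.21 and 1.11 in control mice and 0.833, 0.869 and 0.625 in ELS mice. Egr1 counts thus exceeded Egr3 counts in every control mouse and were below them in every ELS mouse. The ratio of Egr1 to the corepressor Nab2 was 7.37, 7.17 and 5.77 in control mice and 4.48, 5.13 and 3.55 in ELS mice, again without overlap but with the doubt about Nab2 reads given above. By contrast, the ratio of Egr1 to Nr4a1 overlapped between groups, at 3.74, 3.76 and 2.92 in control mice and 3.40, 2.93 and 2.55 in ELS mice. Nr4a1 relative to Nr4a3 also overlapped, at 1.75 to 2.31 in control mice and 1.56 to 2.14 in ELS mice. Egr1 was chosen with its lower level after ELS known, while Egr3 and Nab2 had fitted log2 fold changes of only -0.01 and -0.06. The ratios of Egr1 to Egr3 and to Nab2 therefore largely restate the level of Egr1 and are no separate result. How often ratios of other genes separate the groups was not tested.

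Co-variation between mice of the same group does not use the difference between groups. For this, deviations of log2(CPM + 1) from the group mean were correlated over the 6 mice, which leaves 4 degrees of freedom, and the mice of a pair of genes share library and depth. Over the 21 pairs of Egr and Nr4a genes, Pearson's r was above 0 in all 21, with a median of 0.72 and a range of 0.31 to 0.97. The median over the 86915520 pairs of all genes tested was -0.001. The highest values were between Egr3 and Nr4a2 (0.97), Egr1 and Egr4 (0.95) and Egr1 and Nr4a3 (0.89), and the lowest between Egr3 and Nr4a1 (0.31). In ELS mice Nr4a2 varied by 1.62% of its mean, below its counting error, and Egr3 by 2.79%. The value of 0.97 thus rested mainly on the control mice, where mouse 3 was lowest in both genes. Without control mouse 3, an alternative chosen after seeing the data, the median of the 21 pairs was 0.38.

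The r of Nab2 with the 7 Egr and Nr4a genes ran from 0.21 with Nr4a1 to 0.87 with Egr2. For Nab1 it ran from 0.07 with Nr4a3 to 0.84 with Nr4a1, but Nab1 varied between mice by less than its counting error, so nothing is read from these values. When all 13184 other genes were ordered by their within-group r with Egr1, Egr4 came 99th, Nr4a3 290th and Egr2 530th. The other members came lower, Nr4a2 931st, Nr4a1 1048th, Egr3 1617th, Nab2 2218th and Nab1 3668th. Starting from each Egr and Nr4a gene in turn, 20 of the 42 ordered pairs lay in the top 10% of genes. From Nr4a1, for example, Nr4a3 came 4186th and Egr3 4721st. Each of the 7 Egr and Nr4a genes was above its group mean in control mouse 1 and 4 in control mouse 2, and 0 of 7 in control mouse 3. In ELS mice 1 to 3 the numbers were 6, 5 and 1. The striatal marker sum, given above, was highest in control mouse 3 but not in ELS mouse 3. Control mouse 3 also had the highest oligodendrocyte sum, 6210 CPM against 4700 and 4778 CPM in the other controls, the highest blood sum, 82.2 against 48.7 and 57.0 CPM, and the lowest excitatory sum of the controls, 5492 CPM. Among ELS mice, mouse 1 had the highest striatal (541 CPM), oligodendrocyte (5532 CPM) and blood (76.8 CPM) sums and the lowest excitatory sum (5192 CPM). In that mouse, however, 6 of the 7 Egr and Nr4a genes were above the group mean. The part of these cells in the levels and co-variation of the Egr and Nr4a genes was not tested.

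**Figure D4:**
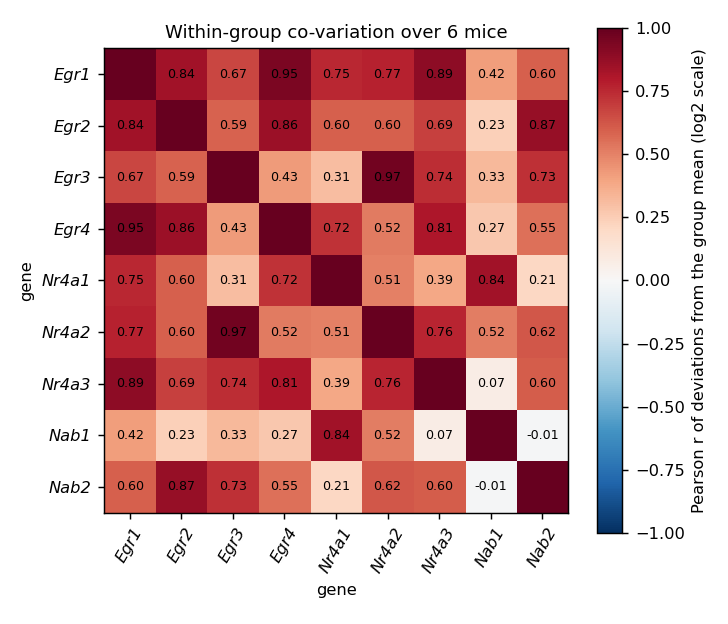
Pearson's r between members of the deviations of log2(CPM + 1) from the group mean over 6 mice, from -1 (blue) to 1 (red). The block of Egr and Nr4a genes is red throughout, from 0.31 to 0.97, and Nab1 is palest.

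The genes most like each member over the 6 mice were sought among 10075 genes with a mean of at least 10 CPM, with Pearson's r of log2(CPM + 1). For Egr1 these were Rpgrip1l, Sik2 and Irs2, for Egr2 Fosb, Pdgfb and Usp20, for Egr3 Son, Zfp326 and Zmym3, and for Egr4 Tbc1d32, Tmem127 and Uba6. For Nr4a1 they were Fut11, Hcfc2 and Ubfd1, for Nr4a2 Jade2, Dffa and Suco, and for Nr4a3 Inpp5k, Il1rap and Far2. For Nab1 they were St6gal2, Nfyb and Slc45a1, and for Nab2 Sec11a, Maml1 and Mdc1. The r of these 27 genes ran from 0.969 to 0.996. Between 49 genes (Nab2) and 263 genes (Nr4a2) had an r of at least 0.9 with a given member, and for Egr1 there were 98. Of the 27, only Fosb was among the other rapid immediate early genes listed here. With 6 mice and 10075 genes compared, r values this high can also arise between unrelated genes. The difference between groups enters these r as well, so nothing is read from the named genes or the counts.

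The other genes of the pathway were taken from lists, ordered here from the signal to the targets. Of 24 upstream regulators (SRF and its ternary complex partners, CREB, MEF2, ERK and calcineurin genes), 0 were called in either direction by edgeR's quasi-likelihood test and 0 by DESeq2, and 1 had an unadjusted p under 0.05. Their median log2 fold change was 0.03, with a range of -0.13 to 0.19. The calcineurin subunits Ppp3ca and Ppp3r1, the most abundant of the list, had log2 fold changes of 0.05 and 0.06, and Rps6ka5 (the kinase MSK1) and Elk1, with the smallest p, had 0.19 and 0.11. The transcripts of these regulators thus gave no call, while their protein activity was not measured.

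Among 25 other rapid immediate early genes, 23 were tested, and the list was put together with earlier results known. The quasi-likelihood test called 0 of 23, while 14 were lower and 2 higher at an unadjusted p under 0.05, against 4.23% of all genes in either direction and 2.34% lower. DESeq2 called 4, beside 0.137% of all genes, and the quasi-likelihood test without control mouse 3 also called 4, beside 0.219%. The likelihood ratio test called 6, beside 0.212%, and the fit with replicate number as a block called 2, beside 0.0531%. Their median log2 fold change was -0.32, close to that of the members, and 19 of 23 were below 0, against 52.5% of all genes tested. Npas4, an activity-dependent transcription factor, had the largest fold change of the list, from 32.3, 18.4 and 14.0 CPM in control mice to 5.61, 8.32 and 6.85 CPM in ELS mice. Arc, a synaptic protein gene known as an EGR target, had 262, 199 and 231 CPM in the controls and 144, 158 and 196 CPM after ELS. In both, the ELS mice were all below the controls. Zfp36, which encodes an mRNA decay factor, had 3.96, 3.36 and 4.12 CPM in the controls and 2.16, 1.95 and 2.17 CPM after ELS. Jund, which is expressed steadily, had a log2 fold change of 0.04. The 2 genes higher at an unadjusted p under 0.05, named after their values were seen, were Jun (0.23) and Klf10 (0.21).

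Slower activity-regulated genes had a median near 0. Of 14 tested, the quasi-likelihood test and DESeq2 each called 0, 2 had an unadjusted p under 0.05, and the median log2 fold change was 0.02. The 2 were Baz1a, a chromatin remodeling subunit gene (-0.63), and Ptgs2, which encodes cyclooxygenase 2 (-0.33). Rasgrp1 and Nrn1, the most abundant of the list by the mean of all mice, had log2 fold changes of -0.01 and 0.07.

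Genes known as EGR targets were spread on both sides of 0. Of 9 tested, the quasi-likelihood test called 0 and DESeq2 called Arc alone, which was also the 1 gene with an unadjusted p under 0.05. The median log2 fold change was -0.0012. Syn1 and Cdk5r1, which encode synapsin and the p35 activator of a neuronal kinase, had log2 fold changes of -0.0012 and 0.06, and Pdgfa had 0.10. Of 8 genes known as NR4A targets, 6 passed the filter, with a median of -0.08. No gene of this list was called by either test, and 0 had an unadjusted p under 0.05. Vip and Bdnf, the most abundant, had log2 fold changes of 0.01 and 0.06, and Spp1 had -0.23.

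For the partners of the proteins, 13 NuRD genes had a median log2 fold change of -0.01 and a range of -0.12 to 0.11. Neither the quasi-likelihood test nor DESeq2 called any of them, and 0 had an unadjusted p under 0.05. Chd3 and Rbbp4, the most abundant, had log2 fold changes of -0.01 and 0.01, and Mta1 and Hdac2 had -0.12 and 0.11. The retinoid X receptor genes Rxra, Rxrb and Rxrg had log2 fold changes of -0.04, 0.03 and 0.25. None of the 3 was called by either test or had an unadjusted p under 0.05.

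**Figure D5:**
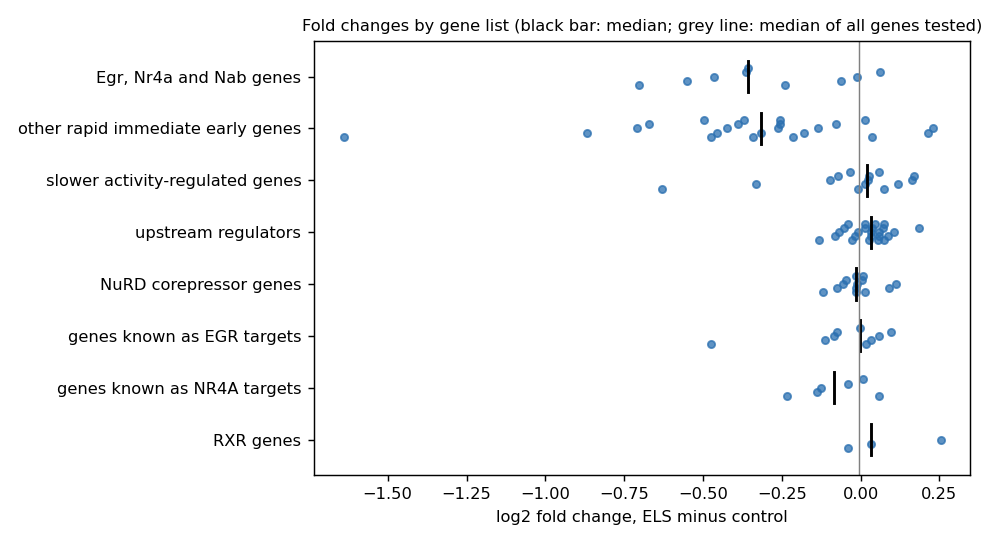
Log2 fold changes (ELS minus control) of the tested genes of each list, 1 point per gene, with the list median as a black bar and the median of all genes tested as a grey line. The members (median -0.36) and the other rapid immediate early genes (median -0.32) lie to the left, and the remaining lists lie around 0.

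Markers of other cell types were summed per mouse, and in each of the 9 lists whose sums are given here the groups overlapped. Interneuron markers summed to 720.0 to 764 CPM in the controls and 725 to 761 CPM after ELS. Astrocyte markers summed to 4517 to 4748 and 3923 to 4679 CPM, oligodendrocyte markers to 4700 to 6210 and 4766 to 5532 CPM, and microglia markers to 255 to 268 and 262 to 274 CPM, in control and ELS mice respectively. Endothelial markers summed to 117 to 140 and 126 to 152 CPM, blood markers to 48.7 to 82.2 and 51.0 to 76.8 CPM, and choroid plexus markers, 2 of 3 of which were under 1 CPM in every mouse, to 1.95 to 2.63 and 1.95 to 3.15 CPM. The striatal markers, none of them at 0, summed to 298 to 557 CPM in the controls and 360 to 541 CPM after ELS. Their fitted log2 fold changes ran from -0.02 to 0.36, with a median of 0.175, and 1 of 8 was below 0. By the quasi-likelihood test, 0 of them had an unadjusted p under 0.05. The part of any of these cells in the levels of the Egr and Nr4a genes was not tested.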

How the data were processed

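RNA-seq was carried out on PFC of 3 control and 3 ELS mice. After trimming (Trimmomatic) and alignment to mm10 by STAR (2.7.1a in the submitters' processing notes, another version in the methods), the authors used HTSeq (0.9.1 in those notes) on unique reads and deposited raw counts per gene symbol. The annotation release and the strand setting are not given in the sources used here. ELS columns carry the initials of social isolation and were matched through that term and their number. Positions and exon lengths come from GENCODE M21 (GRCm38, equal to mm10), and promoters from RefSeq on GRCm38.p6.

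The 13185 genes that reached 1 CPM throughout a group were scaled by TMM and compared with the quasi-likelihood test of edgeR 4.0.16 in R 4.3.3. The standard error of a fold change is its size over the square root of F. DESeq2 1.42.0, the likelihood ratio test, limma-voom (limma 3.58.1), other scaling or filters, replicate number as a block, and fits with 1 mouse left out were the alternatives. The quasi-likelihood, likelihood ratio, limma-voom and DESeq2 tests were also run on simulated data with 200 changed genes. At 28405795 to 35241743 counts per library, counting error at the lowest count of a member was 1.39% to 7.83%, above the spread between mice for Nab1 and, in ELS mice, Nr4a2. Within-group differences exceeded sampling noise (chi-square over its degrees of freedom of at least 6.25).

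The members and lists were chosen with earlier results of these data known. Genes named are the members, the 2 most abundant genes and the 2 with the smallest p of each pathway list, and the 3 genes most like each member; Jun and Klf10 were named after their values were seen. Marker lists are given as sums, with 4 genes of the cortical excitatory list named; another gene of it is not reported here. Protein sequences were not used here.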

Additional observations from a re-analysis of the deposited data

How the results depend on the processing

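The number of genes called was 2 in the quasi-likelihood fit, 18 with DESeq2, 28 with the likelihood ratio test, 4 with no filter beyond 1 read and between 1 and 29 when a mouse was left out, 29 being the fit without control mouse 3. The number of members called was 0, and it was 1 with DESeq2, 2 with the likelihood ratio test and between 0 and 3 when a mouse was left out. It was 0 in 11 of the 15 alternatives. The median log2 fold change over the members was below 0 in all 15, between -0.36 and -0.35 in those with all mice and between -0.46 and -0.21 with a mouse left out. The fold change of Egr3 turned to 0.0011 with upper-quartile scaling and 0.0011 with no scaling factors, and ran from -0.11 to 0.056 with a mouse left out, while that of Nab2 ran from -0.13 to 0.0064. Of 135 member values under the alternatives, 6 changed sign, and 7 passed both thresholds. The causes were not tested. The median fold change of all genes stayed between -0.0080 and 0.0065.

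When replicate number entered as a block, 7 genes and 1 member, Egr1, were called, and the median over the members was -0.36. Same-numbered mice had correlations of deviations of -0.164, 0.258 and -0.0355, and 2 of 6 mice correlated best with their own number, so the numbers were not taken to pair the mice. In the quasi-likelihood fit without a block, the fold changes of Egr3, Nr4a2, Nab1 and Nab2 were within 2 standard errors of 0. As the members were chosen with these values known, this describes their size and is no test of any member.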
